A study of Homo sapiens with 6 samples.

Results

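The 10 genes described here encode chaperones of the endoplasmic reticulum (ER) and components of the unfolded protein response. They were chosen by name, with earlier results of these data known: the chaperones and folding factors HSPA5, HSP90B1, MANF, SDF2L1, PDIA4 and DNAJB9, the stress sensor ERN1, the transcription factor XBP1, and the degradation factors SEL1L and HERPUD1. All 10 were found among the 17811 genes listed in the data. The cells were of the established line 22RV1, from a human prostate cancer, and poly(A) RNA was sequenced in 3 groups of 2 libraries. The control cells (shLuc) stably carried a short hairpin RNA against luciferase, which these cells do not have. The other 2 groups stably carried a hairpin against IMPA1, which encodes inositol monophosphatase 1 (shIMPA1), or against IMPDH2, which encodes an enzyme of guanine nucleotide synthesis (shIMPDH2). All groups grew in the same medium, RPMI-1640 with 10% serum. The labels number the libraries of a group 1 and 2 and do not tell whether these are separate cultures, separate hairpins against the same gene or repeats of 1 population. The replicate spread behind every mean, SD and p-value may therefore be technical or may include a difference between hairpins.

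Proteins that enter the ER are folded there by chaperones such as BiP, the product of HSPA5, and proteins that fail to fold are sent back to the cytosol for degradation. When unfolded proteins accumulate, the sensors IRE1 (encoded by ERN1), ATF6 and PERK start the unfolded protein response. IRE1 splices the XBP1 mRNA so that it encodes an active transcription factor, ATF6 is cut to release another, and PERK slows translation while the factor ATF4 accumulates. XBP1 and ATF6 drive genes of chaperones and of ER-associated degradation, in part through a paired sequence called the ER stress response element. Secretory cells such as those of the prostate epithelium carry a high load of proteins through the ER.

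Upstream sequences of the members were taken from RefSeq (GRCh38.p14), as windows from 250 bases before to 50 bases after each annotated start. All 10 genes matched, with 12 windows in all because PDIA4 and XBP1 have 2 starts each. Both strands were searched for the ER stress response element (CCAAT and CCACG with 9 bases between them), its short form (ATTGG and CCACG with 1 base between them) and the core TGACGTG. The full element occurred in 27 of 35116 windows of this length in the genome (0.0769%) and in 3 of the 12 member windows, those of HSPA5, HSP90B1 and XBP1. The short form occurred in 19 of the 35116 windows (0.0541%) and in 2 member windows, those of SDF2L1 and HERPUD1. TGACGTG occurred in 692 windows (1.97%) and in 0 of the 12. Each match to the full element or its short form overlaps a CCAAT box and a CCACG by construction. CCAAT alone is common, at 34.6% of all windows and 11 of the 12, and CCACG alone occurred in 38.1% of all windows and 11 of the 12. Only exact matches were counted, so stretches that differ from an element by 1 base are neither counted nor marked. A match describes these letters only, and a window without one says nothing about a factor.

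The sequences with a match are shown because members with the full element, and members with the short form, are found below both among those that fell and among those that rose in shIMPA1. Each reads 5′ to 3′ on the strand of the gene, with the element in capitals and counted from the RefSeq start, and stops before the first exon of the gene in GENCODE 29. The HSPA5 stretch is chr9:125241344-125241593 on the minus strand, with the element from base -66. The XBP1 stretch is chr22:28800598-28800819 on the minus strand, with the element from base -52. The SDF2L1 stretch is chr22:21642052-21642260 on the plus strand, with the short element from base -188 on the opposite strand. The HERPUD1 stretch is chr16:56931892-56932047 on the plus strand, with the short element from base -117. For HSP90B1, whose GENCODE exons cover the window, only the elements and 5 bases on either side are given: chr12:103930211-103930239, from base -194, and chr12:103930316-103930344, from base -89 on the opposite strand.
HSPA5: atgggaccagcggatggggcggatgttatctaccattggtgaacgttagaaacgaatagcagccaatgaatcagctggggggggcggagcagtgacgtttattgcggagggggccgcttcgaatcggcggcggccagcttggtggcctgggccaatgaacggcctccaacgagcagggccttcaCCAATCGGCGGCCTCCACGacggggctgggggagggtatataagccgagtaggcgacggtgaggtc
XBP1: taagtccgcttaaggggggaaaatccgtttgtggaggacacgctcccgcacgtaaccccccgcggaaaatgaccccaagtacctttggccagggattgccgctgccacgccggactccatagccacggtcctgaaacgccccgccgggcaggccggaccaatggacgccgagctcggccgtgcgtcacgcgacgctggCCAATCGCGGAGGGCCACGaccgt
SDF2L1: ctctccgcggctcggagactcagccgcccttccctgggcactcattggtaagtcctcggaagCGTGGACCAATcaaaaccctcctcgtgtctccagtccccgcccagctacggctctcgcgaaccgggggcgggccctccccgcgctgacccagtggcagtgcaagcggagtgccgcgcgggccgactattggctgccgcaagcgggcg
HERPUD1: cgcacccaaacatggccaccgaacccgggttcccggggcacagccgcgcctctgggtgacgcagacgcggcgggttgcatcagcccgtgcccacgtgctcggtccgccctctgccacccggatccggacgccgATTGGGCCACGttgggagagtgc
HSP90B1, base -194: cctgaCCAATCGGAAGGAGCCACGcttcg
HSP90B1, base -89: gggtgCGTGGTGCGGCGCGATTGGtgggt

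**Figure D1:**
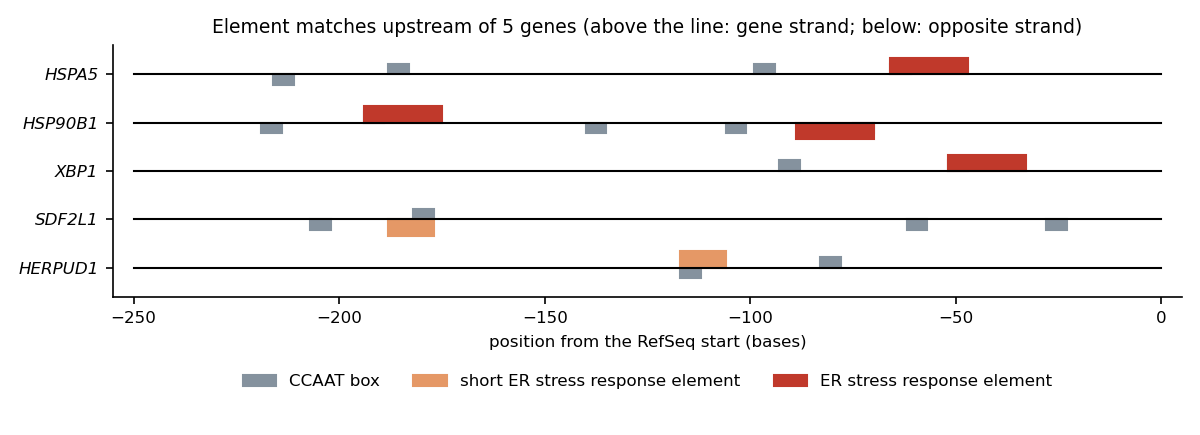
Positions of element matches upstream of 5 members, in bases from the RefSeq start (x axis), with matches on the strand of the gene above each line and on the opposite strand below it. HSP90B1 holds 2 exact matches to the full element, HSPA5 and XBP1 hold 1 each, and SDF2L1 and HERPUD1 hold the short form, which overlaps a CCAAT box.

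The libraries held 20828900 to 27773294 reads in the listed genes. Each hairpin lowered its own target: IMPA1 was 1029 ± 102 normalised reads in shIMPA1 against 1476 ± 205 in shLuc, and IMPDH2 was 3049 ± 166 in shIMPDH2 against 4651 ± 539 in shLuc (mean ± SD, n = 2 libraries). The limma adjusted p-values of these falls were 0.0145 and 0.00999. The shIMPA1 libraries lay further apart than the others, with 934 genes differing more than 2-fold between them, against 266 in shLuc and 398 in shIMPDH2. Among the 10 members, only HSPA5 and DNAJB9 differed more than 1.5-fold within a group, and both did so in shIMPA1. All 10 prostate luminal markers were listed, and their summed level was 124325 to 126822 in shLuc, 95770 to 98129 in shIMPA1 and 102236 to 109243 in shIMPDH2. KRT8 alone made up 40650 to 71625 of these sums, with log2 changes of -0.28 in shIMPA1 (limma adjusted p = 0.242) and -0.64 in shIMPDH2 (limma adjusted p = 0.0265). The 10 markers went both ways, with 2 higher and 4 lower in shIMPA1 and 4 higher and 2 lower in shIMPDH2. Of 14 markers of other cells, 7 were listed, with sums of 5535 to 5898 in shLuc, 5948 to 6379 in shIMPA1 and 5412 to 5843 in shIMPDH2, mostly from SYP. PTPRC, CD68, PECAM1, VWF, COL1A2, PDGFRB and TP63 were not among the listed genes. The part of these shifts in the results below was not tested.

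All 10 members changed in shIMPA1, 5 down and 5 up. HSPA5, HSP90B1, MANF, SDF2L1 and PDIA4 fell by between 1.57-fold and 2.92-fold, whereas DNAJB9, ERN1, XBP1, SEL1L and HERPUD1 rose by between 1.39-fold and 2.98-fold. In shIMPDH2, DNAJB9, XBP1, SEL1L and HERPUD1 rose by between 1.51-fold and 1.99-fold and the other 6 did not pass the test. Calls are adjusted p-values under 0.05 from limma over all 17742 genes tested. In shIMPA1 30.2% of all genes were called, 14.0% higher and 16.2% lower. In shIMPDH2 17.0% were called, 7.86% higher and 9.15% lower. Between the knockdowns 26.1% were called, 13.5% higher and 12.6% lower in shIMPDH2, and 6 of the 10 members were among them, 5 higher and 1 lower. Without limma's mean-variance trend, HSPA5, DNAJB9 and HERPUD1 were not called in shIMPA1 (limma adjusted p = 0.0979, 0.0510 and 0.118), nor DNAJB9 and XBP1 in shIMPDH2 (0.106 and 0.0739). With only the shIMPA1 and shLuc libraries in the fit, HSPA5 and HERPUD1 were not called (limma adjusted p = 0.0538 and 0.0734). In bulk RNA, a change in the share of cells that express a gene and a change in RNA per cell cannot be told apart.

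**Figure D2:**
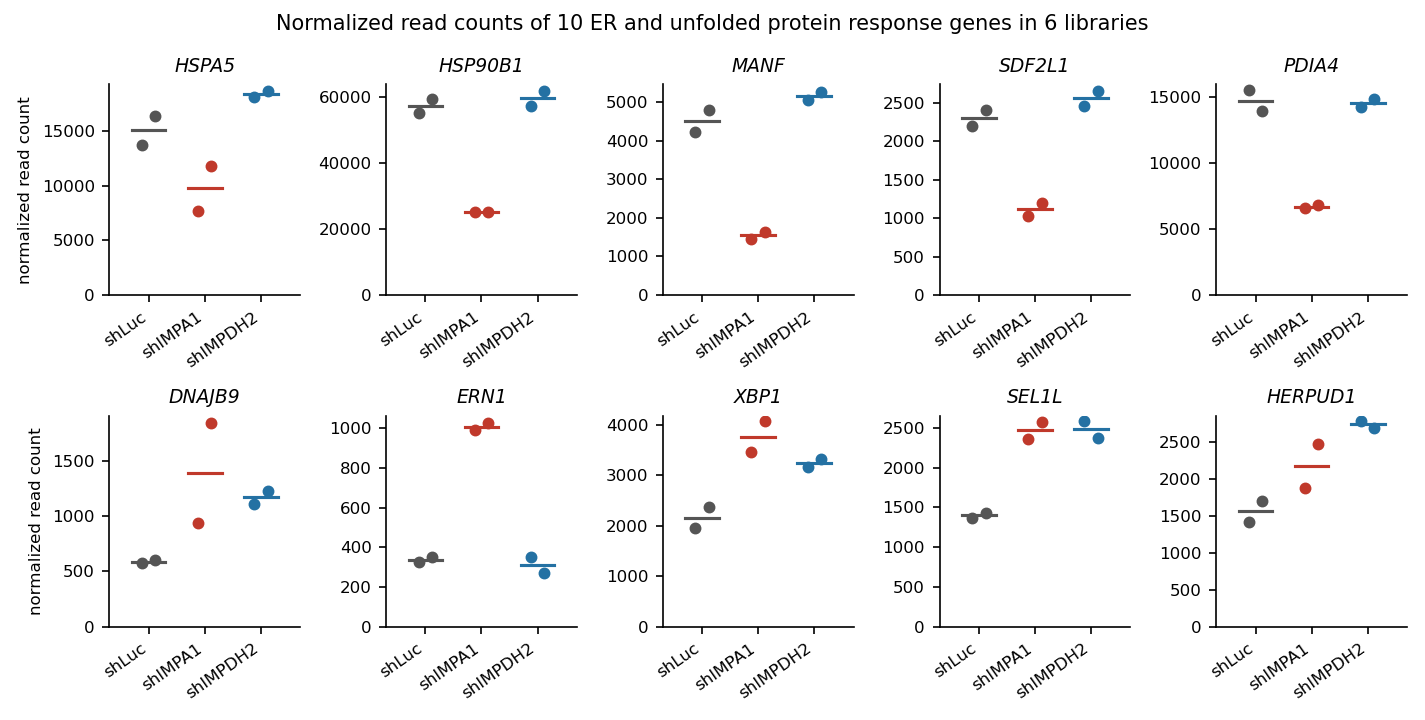
Normalised read counts (y axis, from 0, a separate scale for each gene) of the 10 members in the 6 libraries, as points, with a line at the mean of each group of 2. In shIMPA1 the first 5 genes lie below shLuc and the lower row lies above it, and in shIMPDH2 the points of DNAJB9, XBP1, SEL1L and HERPUD1 lie above shLuc.

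HSPA5 (ENSG00000044574, chr9:125234853-125241330, minus strand) encodes BiP, the main Hsp70 chaperone of the ER lumen, which also holds the stress sensors inactive. Its normalised read counts were 13782 and 16410 in the shLuc libraries, 7688 and 11877 in the shIMPA1 libraries, and 18196 and 18753 in the shIMPDH2 libraries. Both shIMPA1 libraries lay below and both shIMPDH2 libraries above shLuc, with a wide gap between the shIMPA1 pair. The fall in shIMPA1 was 0.65 on the log2 scale to a level 1.57-fold lower, with an SE of 0.19 and a limma adjusted p of 0.0245. This call was lost in 5 of the 6 fits that left out 1 library, at limma adjusted p-values of 0.0695 without shLuc replicate 1, 0.185 without shLuc replicate 2, 0.0946 without shIMPA1 replicate 1, and 0.0551 and 0.0550 without shIMPDH2 replicates 1 and 2. The log2 change was -0.34 without shIMPA1 replicate 1 and -0.97 without shIMPA1 replicate 2. In shIMPDH2 the difference from shLuc was 0.30 (95% interval -0.12 to 0.72), which did not pass the test (limma adjusted p = 0.317).

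HSP90B1 (ENSG00000166598, chr12:103930107-103953645, plus strand) encodes GRP94, the Hsp90 chaperone of the ER, which folds a narrow set of clients such as integrins. It had the highest level of the 10 members, with 55008 and 59390 reads in the controls, 25121 and 25174 in shIMPA1, and 57281 and 61871 in shIMPDH2. The shIMPA1 libraries lay far below all 4 others, and the shIMPDH2 and shLuc libraries overlapped. The level in shIMPA1 was 2.27-fold lower than in shLuc (log2 change -1.18, SE 0.16, limma adjusted p = 0.00035). In shIMPDH2 the log2 difference was 0.06 (95% interval -0.28 to 0.40, limma adjusted p = 0.829). Exons of C12orf73 and of the pseudogene TTC41P lie on the opposite strand of HSP90B1, and whether the counting used strand is not given in the sources used here. TTC41P went the other way, from a mean of 366 reads in shLuc to 885 in shIMPA1.

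MANF (ENSG00000145050, chr3:51385047-51389397, plus strand) encodes a small ER protein that binds BiP and is secreted under stress. It fell more than the other members, from 4228 and 4788 reads in shLuc to 1454 and 1635 in shIMPA1, and it read 5060 and 5266 in shIMPDH2. Both shIMPA1 libraries lay below all others, and both shIMPDH2 libraries lay above shLuc by less than the test could separate. The shIMPA1 level was 2.92-fold lower than in shLuc (log2 change -1.54, SE 0.12, limma adjusted p = 1.29e-05). The shIMPDH2 difference was 0.20 (95% interval -0.07 to 0.47, limma adjusted p = 0.298).

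SDF2L1 (ENSG00000128228, chr22:21642261-21644298, plus strand) encodes an ER-resident partner of the J-proteins that assist BiP. Its counts were 2194 and 2399 with shLuc, 1026 and 1198 with shIMPA1, and 2457 and 2654 with shIMPDH2. The order was that of MANF, with shIMPA1 lowest and shIMPDH2 highest without overlap. The shIMPA1 level was 2.07-fold lower (log2 change -1.05, SE 0.13, limma adjusted p = 0.000184), and the shIMPDH2 difference of 0.15 did not pass the test (95% interval -0.12 to 0.43, limma adjusted p = 0.431). PDIA4 (ENSG00000155660, chr7:149003062-149028641, minus strand) encodes ERp72, a protein disulfide isomerase. It read 15504 and 13962 with shLuc, 6601 and 6810 with shIMPA1, and 14224 and 14853 with shIMPDH2, so that only the shIMPA1 libraries stood apart. PDIA4 was 2.19-fold lower in shIMPA1 (log2 change -1.13, SE 0.13, limma adjusted p = 0.000122) and differed by -0.02 in shIMPDH2 (95% interval -0.30 to 0.26, limma adjusted p = 0.940).

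DNAJB9 (ENSG00000128590, chr7:108569568-108574850, plus strand) encodes ERdj4, a J-protein that returns BiP to IRE1 and so restrains it. It was the chaperone gene among the members that rose in shIMPA1. Its counts were 577 and 599 with shLuc, 941 and 1842 with shIMPA1, and 1111 and 1230 with shIMPDH2. Both knockdown groups lay above shLuc, and the shIMPA1 libraries were 1.96-fold apart and enclosed the shIMPDH2 pair. The rise in shIMPA1 was 2.24-fold (log2 change 1.16, SE 0.24, limma adjusted p = 0.0044), and leaving out shLuc replicate 1 ended the call (limma adjusted p = 0.0555). Its log2 value was 1.65 without shIMPA1 replicate 1 and 0.68 without shIMPA1 replicate 2. The rise in shIMPDH2 was 1.99-fold (log2 change 0.99, limma adjusted p = 0.0165). That call was lost without shLuc replicate 1 or 2 and without shIMPDH2 replicate 1 or 2. The log2 value in shIMPDH2 was 0.92 to 1.06 over all fits that left out 1 library. Exons of PNPLA8 and THAP5 on the opposite strand overlap DNAJB9. Both had a higher mean than DNAJB9 in every group, and neither passed the test in any comparison.

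ERN1 (ENSG00000178607, chr17:64039142-64130819, minus strand) encodes IRE1, the kinase and endoribonuclease that splices XBP1 mRNA. Its counts were 325 and 350 with shLuc, 993 and 1024 with shIMPA1, and 351 and 272 with shIMPDH2. The shIMPA1 libraries stood far above the 4 others, which overlapped. ERN1 rose 2.98-fold in shIMPA1 (log2 change 1.58, SE 0.15, limma adjusted p = 4.37e-05), the largest rise among the members there. In shIMPDH2 the log2 difference from shLuc was -0.12 (95% interval -0.46 to 0.21, limma adjusted p = 0.607).

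XBP1 (ENSG00000100219, chr22:28794555-28800597, minus strand) encodes the transcription factor that IRE1 activates by splicing. Counts per gene do not separate its spliced from its unspliced mRNA. They were 1955 and 2369 with shLuc, 3471 and 4076 with shIMPA1, and 3165 and 3329 with shIMPDH2. Both knockdown groups lay above shLuc, and shIMPDH2 lay below shIMPA1. XBP1 rose 1.75-fold in shIMPA1 (log2 change 0.81, SE 0.13, limma adjusted p = 0.00147) and 1.51-fold in shIMPDH2 (log2 change 0.59, SE 0.13, limma adjusted p = 0.0131). The shIMPDH2 call was lost without shLuc replicate 1, shIMPDH2 replicate 1 or shIMPDH2 replicate 2. The log2 value in shIMPDH2 was 0.45 to 0.73 over all fits that left out 1 library.

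SEL1L (ENSG00000071537, chr14:81471549-81533861, minus strand) encodes the scaffold of the HRD1 ubiquitin ligase, through which misfolded proteins leave the ER. It read 1371 and 1431 with shLuc, 2365 and 2580 with shIMPA1, and 2591 and 2379 with shIMPDH2. Both knockdown groups lay above shLuc and overlapped each other. SEL1L rose 1.76-fold in shIMPA1 (log2 change 0.82, SE 0.12, limma adjusted p = 0.000582) and 1.77-fold in shIMPDH2 (log2 change 0.83, SE 0.12, limma adjusted p = 0.000906). It was the member whose call in shIMPDH2 was kept in all 16 alternative analyses.

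HERPUD1 (ENSG00000051108, chr16:56932048-56944863, plus strand) encodes a membrane protein that organises the HRD1 complex. Its counts were 1420 and 1698 with shLuc, 1878 and 2468 with shIMPA1, and 2779 and 2689 with shIMPDH2. The 3 groups did not overlap, with shIMPDH2 highest. HERPUD1 rose 1.76-fold in shIMPDH2 (log2 change 0.82, SE 0.15, limma adjusted p = 0.00411) and 1.39-fold in shIMPA1 (log2 change 0.47, SE 0.15, limma adjusted p = 0.0343). The shIMPDH2 call was lost without shLuc replicate 1, shIMPDH2 replicate 1 or shIMPDH2 replicate 2. The log2 value in shIMPDH2 was 0.69 to 0.94 over all fits that left out 1 library. The shIMPA1 call was lost without any 1 library except shIMPA1 replicate 1: limma adjusted p-values were 0.258 and 0.0702 without shLuc replicates 1 and 2, 0.0971 without shIMPA1 replicate 2, and 0.0744 and 0.0742 without shIMPDH2 replicates 1 and 2. The log2 value in shIMPA1 was 0.34 without shLuc replicate 1, 0.67 without shIMPA1 replicate 1 and 0.27 without shIMPA1 replicate 2.

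Set against each other, the knockdowns differed in 5 chaperones and in the sensor. In shIMPDH2 relative to shIMPA1, HSPA5 was 1.93-fold higher, HSP90B1 2.37-fold, MANF 3.35-fold, SDF2L1 2.30-fold and PDIA4 2.17-fold, with limma adjusted p-values of 0.00472, 0.000283, 7.48e-06, 9.31e-05 and 0.000167. ERN1 was 3.25-fold lower in shIMPDH2 (limma adjusted p = 3.21e-05). The libraries of the knockdowns did not overlap for these 6 genes, nor for XBP1 and HERPUD1, which were not called. With 2 libraries in each group, libraries can fail to overlap without any difference, and the share of all genes without overlap was not counted. The HSPA5 call was lost without shIMPDH2 replicate 2 (limma adjusted p = 0.0618), and its log2 value was 0.64 without shIMPA1 replicate 1. SEL1L differed by 0.01 (95% interval -0.25 to 0.26), DNAJB9 by -0.17 (-0.69 to 0.35), XBP1 by -0.21 (-0.51 to 0.08) and HERPUD1 by 0.34 (0.02 to 0.67), and these 4 did not pass the test (limma adjusted p = 0.970, 0.634, 0.271 and 0.112). The log2 values of DNAJB9 and XBP1 were -0.66 and -0.33 without shIMPA1 replicate 1. Without shIMPA1 replicate 2, HERPUD1 was higher in shIMPDH2 by 0.54, and DNAJB9 instead lay higher there, by 0.31. Such a fit holds 1 shIMPA1 library, so the spread of that pair does not enter it.

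**Figure D3:**
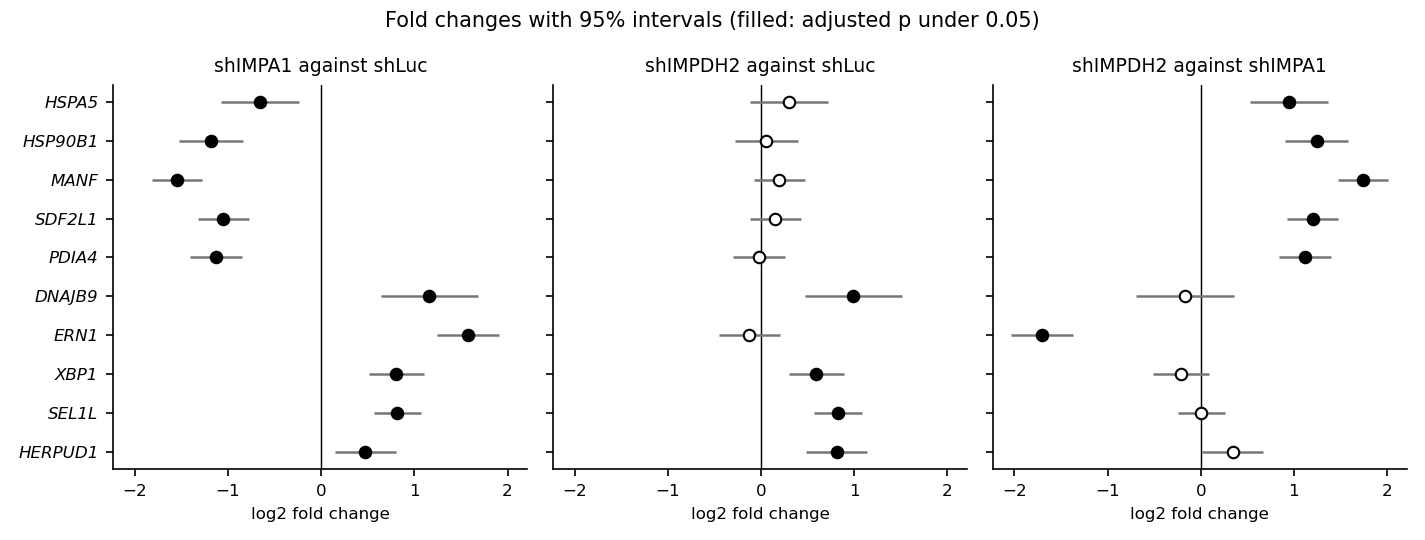
Log2 fold changes (x axis) of the 10 members in the 3 comparisons, as points with 95% intervals from limma, filled where the adjusted p was under 0.05. All 10 points are filled for shIMPA1 against shLuc, 4 for shIMPDH2 against shLuc, and 6 between the knockdowns.

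The 5 members with an exact match to an element went both ways in shIMPA1: HSPA5, HSP90B1 and SDF2L1 fell, whereas XBP1 and HERPUD1 rose. Of the pair with the short element, SDF2L1 fell and HERPUD1 rose. Of the 191 other ER genes, 165 had a window, with 238 windows in all. The full element occurred in 7 of these windows (2.94%), the short form in 1 (0.42%) and TGACGTG in 25 (10.5%). Among these genes, CALR, CRELD2, PDIA6, CANX and ERO1B have the full element and HYOU1 the short one. CALR, CRELD2 and PDIA6 fell in shIMPA1, and the other 3 were not called there.

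Per kilobase of exon (merged GENCODE 29 exons), HSP90B1 had the highest level of the 10 genes in each group, at 12183 normalised reads per kilobase in shLuc, 5356 in shIMPA1 and 12689 in shIMPDH2, and ERN1 the lowest, at 31.1, 92.8 and 28.7. In shLuc the order after HSP90B1 was PDIA4, HSPA5, SDF2L1, MANF, XBP1, HERPUD1, DNAJB9, SEL1L and ERN1. Neighbours were taken to differ beyond their spread where their means differed by more than the sum of their SDs. By that rule PDIA4 and HSPA5 did not differ in shLuc, nor did SDF2L1 and MANF. The libraries of PDIA4 and HSPA5 did not overlap there, whereas those of SDF2L1 and MANF did. In shIMPA1 XBP1 came after HSP90B1, HSPA5 and PDIA4 with 1246 normalised reads per kilobase, next to SDF2L1 with 1012, and MANF with 648 stood next to DNAJB9 with 490. The neighbours HSPA5 and PDIA4, XBP1 and SDF2L1, MANF and DNAJB9, and DNAJB9 and HERPUD1 did not differ beyond their spread in shIMPA1. Of these pairs, only XBP1 and SDF2L1 had libraries that did not overlap. In shIMPDH2 the order was that of shLuc with HSPA5 and PDIA4 exchanged, and only SDF2L1 and MANF were not separated by more than their spread. The libraries of that pair did not overlap in shIMPDH2. Together the 10 members took 0.391% and 0.425% of the listed reads with shLuc, 0.219% and 0.246% with shIMPA1, and 0.446% and 0.449% with shIMPDH2.

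Genes whose levels over the 6 libraries most resembled those of 3 members were sought by the root mean square difference of centred log2 values, a description over libraries that share their groups. For HSPA5 they were TUBA1A, RARS1 and PJA2, with differences of 0.0959, 0.109 and 0.109. For MANF they were GAPDHP1, NSDHL and NAP1L3, with 0.124, 0.152 and 0.164. GAPDHP1 is a pseudogene whose reads may belong to near-identical copies. It was scarce, with means of 15.5 in shLuc, 4.38 in shIMPA1 and 17.1 in shIMPDH2. For ERN1 they were ZNF783, HOXA9 and HLA-F, with 0.0893, 0.123 and 0.129. HLA-F too was scarce, with means of 13.8 in shLuc, 41.0 in shIMPA1 and 10.3 in shIMPDH2. Among the members themselves, the gene nearest to HSPA5 was SDF2L1 (0.205), that nearest to MANF was HSP90B1 (0.217), and that nearest to ERN1 was XBP1 (0.626).

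Beyond the members, 11 lists of ER pathway genes held 191 further genes, of which 189 were tested. In shIMPA1 46 were called higher and 24 lower, or 37.0% of them against 30.2% of all genes, and their median log2 change was 0.08 against 0.02 for all genes. In shIMPDH2 48 were called higher and 5 lower (28.0% against 17.0% of all genes), with a median of 0.25 against -0.01 for all genes. Between the knockdowns 47 were higher and 20 lower in shIMPDH2 (35.4% against 26.1% of all genes), with a median of 0.12. The shIMPDH2 counts moved with the library left out: they fell without a shLuc or shIMPDH2 library and rose without a shIMPA1 library. All 3 groups share 1 estimate of the spread, so the shIMPA1 pair also enters these p-values. A lost call is therefore not the same as a changed log2 value. Over these fits the shIMPDH2 log2 values of DNAJC10, DNAJC3 and SEC63 ranged from 0.59 to 0.65, 0.42 to 0.57 and 0.33 to 0.51. Of 29 calls named below for shIMPDH2 against shLuc, 5 were kept without any 1 library: ERO1A, UBE2J1, CREB3L1, UAP1 and REEP5. The corresponding numbers were 20 of 33 for shIMPA1 against shLuc and 16 of 31 between the knockdowns. In shIMPA1 33 and 34 of the 189 were called without shLuc replicates 1 and 2, and between the knockdowns 38 and 23 without shIMPDH2 replicates 1 and 2.

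**Figure D4:**
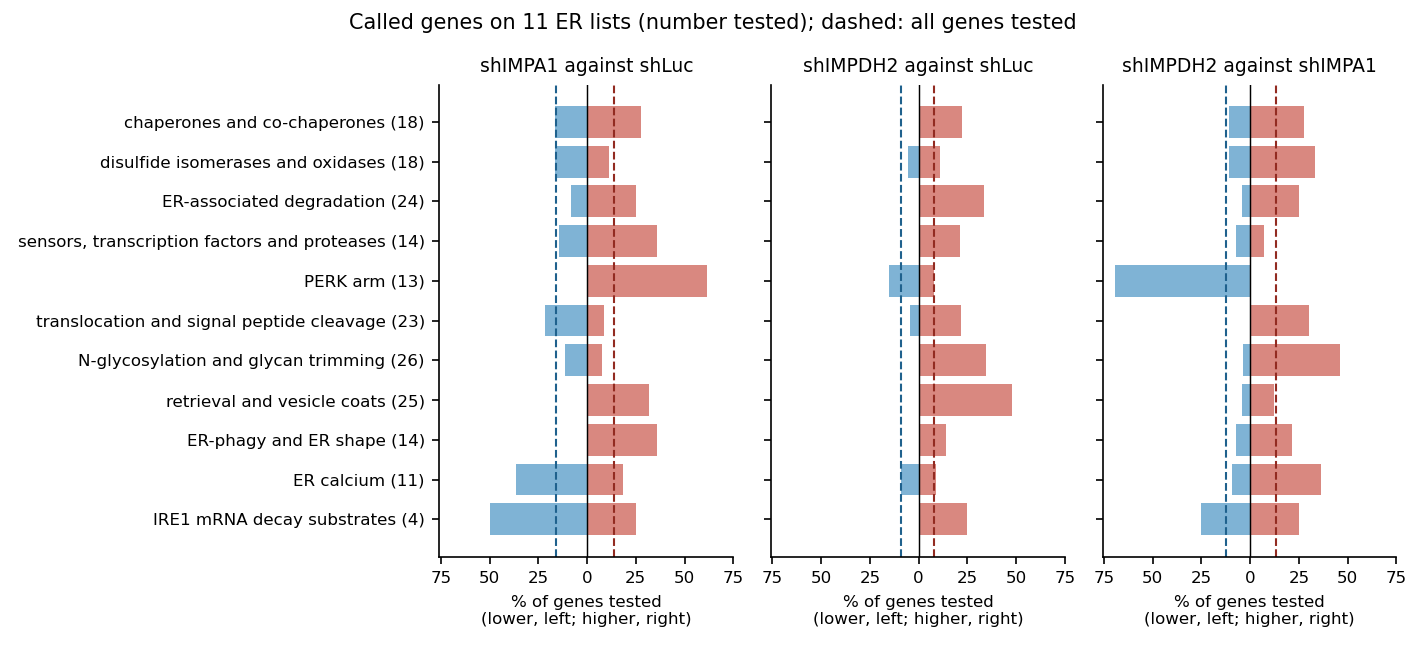
Share of tested genes called higher (right, red) or lower (left, blue) on each of 11 ER lists in the 3 comparisons, with the number tested in brackets and dashed lines at the share of all genes tested. In the PERK arm 8 of 13 genes were higher in shIMPA1 and 9 of 13 were lower in shIMPDH2 than in shIMPA1.

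Of 18 other ER chaperones and co-chaperones, 5 rose and 3 fell in shIMPA1, 4 rose and 0 fell in shIMPDH2, and 5 were higher and 2 lower in shIMPDH2 than in shIMPA1. Calreticulin (CALR), the lectin chaperone that binds calcium, fell in shIMPA1 from a mean of 24290 to 13447 reads (log2 change -0.85, limma adjusted p = 0.0015), as did CRELD2 by 0.69 (limma adjusted p = 0.00237). SIL1, the nucleotide exchange factor of BiP, rose by 0.78 (limma adjusted p = 0.00242). CALR and CRELD2 were higher in shIMPDH2 than in shIMPA1 by 0.99 and 0.94, and FKBP2, a prolyl isomerase, by 0.68, the last call being lost without shIMPDH2 replicate 2 (limma adjusted p = 0.0523). In shIMPDH2 the J-proteins DNAJC10, DNAJC3 and SEC63 rose by 0.62, 0.49 and 0.42 on the log2 scale. Of 18 disulfide isomerases and oxidases, 2 rose and 3 fell in shIMPA1, 2 rose and 1 fell in shIMPDH2, and 6 were higher and 2 lower in shIMPDH2 than in shIMPA1. In shIMPA1 the chaperone list had 44.4% of its genes called and the isomerase list 27.8%, against 30.2% of all genes, and in shIMPDH2 the shares were 22.2% and 16.7% against 17.0%. Between the knockdowns the shares of these lists were 38.9% and 44.4% against 26.1%. PDIA6 fell by 0.59 in shIMPA1, a call that ended without shLuc replicate 2 (limma adjusted p = 0.0778), while the transmembrane isomerase TMX4 rose by 0.67. ERO1A, the oxidase that recharges the isomerases, fell in both knockdowns, by 0.44 in shIMPA1 and 0.79 in shIMPDH2. Leaving out either shLuc library ended its shIMPA1 call (limma adjusted p up to 0.128). TXNDC12 and TXNDC11 rose in shIMPDH2 by 0.63 and 0.69. PDIA6, ERP29 and PDIA3 were higher in shIMPDH2 than in shIMPA1 by 0.80, 0.72 and 0.65, and the last 2 calls were lost without shIMPDH2 replicate 2 (limma adjusted p = 0.0904 and 0.0879).

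In ER-associated degradation, the pathway of SEL1L and HERPUD1, 6 of 24 further genes rose and 2 fell in shIMPA1, 8 rose and 0 fell in shIMPDH2, and 6 were higher and 1 lower in shIMPDH2 than in shIMPA1. The share called was 33.3% in shIMPA1, near the 30.2% of all genes, and 33.3% in shIMPDH2 against 17.0%. It was 29.2% between the knockdowns, near the 26.1% of all genes. DERL3, a derlin of the retrotranslocation complex, went against SEL1L: its counts were 1289 and 1236 with shLuc, 264 and 183 with shIMPA1, and 1033 and 1225 with shIMPDH2. It fell by 2.52 on the log2 scale in shIMPA1 (limma adjusted p = 4.45e-06) and was higher in shIMPDH2 than in shIMPA1 by 2.35 (limma adjusted p = 9.5e-06). HERPUD2 and EDEM1, which trims mannose from misfolded glycoproteins, rose in shIMPA1 by 0.95 and 0.81. Leaving out shLuc replicate 1 ended the EDEM1 call (limma adjusted p = 0.0510). UBE2J1, the ubiquitin-conjugating enzyme at the HRD1 ligase, rose in shIMPDH2 from a mean of 1636 to 2819 reads (log2 change 0.78, limma adjusted p = 0.00148). OS9, a lectin that binds SEL1L, and AUP1 rose there by 0.59 and 0.49. UFD1 and DERL2 were higher in shIMPDH2 than in shIMPA1 by 0.64 and 0.59, and both calls were lost without shIMPDH2 replicate 2, that of DERL2 also without replicate 1 (limma adjusted p up to 0.0588 and 0.0877).

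Of 14 other sensors, transcription factors and proteases of the response, 5 rose and 2 fell in shIMPA1, 3 rose and 0 fell in shIMPDH2, and 1 was higher and 1 lower in shIMPDH2 than in shIMPA1. In shIMPA1 35.7% of this list were called higher and 14.3% lower, against 14.0% and 16.2% of all genes, and in shIMPDH2 21.4% were called against 17.0%. Between the knockdowns 14.3% were called against 26.1%. CREB3L1, a membrane-bound transcription factor related to ATF6, was scarce in shLuc, at 13.5 and 13.1, and read 112 and 104 in shIMPA1 and 76.2 and 57.4 in shIMPDH2. It rose by 2.93 in shIMPA1 and 2.23 in shIMPDH2 on the log2(value + 1) scale (limma adjusted p = 2.21e-05 and 0.000236). ATF6 rose with ERN1 in shIMPA1, from a mean of 994 to 1907 reads (log2 change 0.93, limma adjusted p = 0.000608), and was lower in shIMPDH2 than in shIMPA1 by a log2 value of -0.74. TRAF2, an adaptor of IRE1, fell in shIMPA1 by 0.77, a call that ended without shLuc replicate 1 (limma adjusted p = 0.0533). It was higher in shIMPDH2 than in shIMPA1 by 0.52, a call lost in all fits that left out 1 library except that without shIMPA1 replicate 1 (limma adjusted p up to 0.271), and its value was 0.30 without shIMPA1 replicate 2. MBTPS2, a protease that cuts ATF6, and CREB3 rose in shIMPDH2 by 0.56 and 0.40.

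Of 13 genes of the PERK arm, 8 rose and 0 fell in shIMPA1, with a median log2 change of 0.89. In shIMPDH2 1 rose and 2 fell with a median of 0.06, and 9 of 13 were lower in shIMPDH2 than in shIMPA1 with a median of -0.99. The share called in shIMPA1 was 61.5% against 30.2% of all genes, and between the knockdowns 69.2% against 26.1%. For shIMPDH2 against shLuc it was 23.1% against 17.0%. Other kinases that phosphorylate the same initiation factor also act on these genes. DDIT3, which encodes CHOP, read 1844 and 1580 with shLuc, 11467 and 9360 with shIMPA1, and 2317 and 2732 with shIMPDH2. It rose in shIMPA1 by 2.60 (limma adjusted p = 1.04e-06) and in shIMPDH2 by 0.56 (limma adjusted p = 0.0229). SESN2 and TRIB3, both targets of ATF4, rose in shIMPA1 by 1.76 and 1.60. Relative to shIMPA1, TRIB3, DDIT3 and SESN2 were lower in shIMPDH2 by log2 values of -2.03, -2.04 and -1.37. TRIB3 and PPP1R15B, a phosphatase subunit that restores translation, fell in shIMPDH2 by 0.43 and 0.45.

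Of 23 genes for translocation into the ER and signal peptide cleavage, 2 rose and 5 fell in shIMPA1, 5 rose and 1 fell in shIMPDH2, and 7 were higher and 0 lower in shIMPDH2 than in shIMPA1. The share called in shIMPA1, 30.4%, was that of all genes (30.2%), and in shIMPDH2 it was 26.1% against 17.0%. By direction, 8.70% were higher and 21.7% lower in shIMPA1, against 14.0% and 16.2% of all genes. Between the knockdowns 30.4% were called against 26.1%. SPCS3, a signal peptidase subunit, fell in shIMPA1 by 0.66, SEC61G of the translocon by 0.61 and SRP54 of the signal recognition particle by 0.56. Leaving out shLuc replicate 1 ended the SEC61G call and leaving out shLuc replicate 2 that of SRP54 (limma adjusted p = 0.0748 and 0.0855). In shIMPDH2 SRPRB and SRPRA, the subunits of the particle's receptor, rose by 0.61 and 0.58, and SEC11C by 0.59. SRP54, SEC61G and SRPRB were higher in shIMPDH2 than in shIMPA1 by 0.95, 0.60 and 0.58. Both SRPRB and SEC61G lost that call without shIMPDH2 replicate 2, SEC61G also without replicate 1 (limma adjusted p up to 0.0805 and 0.0903). Of 26 genes for N-glycosylation and glycan trimming, 2 rose and 3 fell in shIMPA1, 9 rose and 0 fell in shIMPDH2, and 12 were higher and 1 lower in shIMPDH2 than in shIMPA1. The share called on this list was 19.2% in shIMPA1, below the 30.2% of all genes, and 34.6% in shIMPDH2 against 17.0%. Relative to shIMPA1, 46.2% of the list were called higher and 3.85% lower in shIMPDH2, against 13.5% and 12.6% of all genes. GFPT1, the first enzyme of the hexosamine pathway and a known XBP1 target, read 1664 and 1826 with shLuc, 5131 and 5010 with shIMPA1, and 2529 and 2245 with shIMPDH2. It rose in shIMPA1 by 1.54 (limma adjusted p = 1.1e-05) and was lower in shIMPDH2 than in shIMPA1 by a log2 value of -1.09. STT3B, a catalytic subunit of oligosaccharyltransferase, and ALG8 fell in shIMPA1 by 0.79 and 0.96. Without shIMPA1 replicate 2 the ALG8 value was -0.61. UAP1, a later enzyme of the hexosamine pathway, rose in shIMPDH2 by 0.74 and was higher there than in shIMPA1 by 1.01. ALG5 and ALG1 rose in shIMPDH2 by 0.55 and 0.62, and ALG8 was higher in shIMPDH2 than in shIMPA1 by 1.18.

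Of 25 genes of retrieval and vesicle coats, 8 rose and 0 fell in shIMPA1, 12 rose and 0 fell in shIMPDH2, and 3 were higher and 1 lower in shIMPDH2 than in shIMPA1. The share called was 32.0% in shIMPA1, near the 30.2% of all genes, and 48.0% in shIMPDH2 against 17.0%. All of these calls were higher, against 14.0% and 7.86% of all genes called higher. Between the knockdowns 16.0% were called against 26.1%. SEC24D and SEC23B, coat proteins of vesicles that leave the ER, rose in shIMPA1 by 0.79 and 0.64, and ARCN1, of the coat that returns to it, by 0.62. Leaving out shLuc replicate 1 ended the calls of ARCN1 and SEC23B (limma adjusted p = 0.0584 and 0.0592). SEC23B, SEC31A and the cargo receptor TMED2 rose in shIMPDH2 by 0.56, 0.54 and 0.59. TMED2, COPB2 and TMED10 were higher in shIMPDH2 than in shIMPA1 by 0.65, 0.59 and 0.51. All 3 calls were lost without shIMPDH2 replicate 2, COPB2 and TMED10 also without replicate 1, and TMED10 also without either shLuc library or shIMPA1 replicate 1 (limma adjusted p up to 0.0832, 0.0767 and 0.190). The TMED10 value was 0.29 without shIMPA1 replicate 1. Of 14 genes for ER-phagy and ER shape, 5 rose and 0 fell in shIMPA1, 2 rose and 0 fell in shIMPDH2, and 3 were higher and 1 lower in shIMPDH2 than in shIMPA1. On that list 35.7% were called in shIMPA1 against 30.2% of all genes, and 14.3% in shIMPDH2 against 17.0%. These calls too were all higher, against 14.0% and 7.86% of all genes called higher. Between the knockdowns 28.6% were called against 26.1%. ATL2, which fuses ER tubules, rose by 0.74 in shIMPA1 and 0.53 in shIMPDH2. CCPG1, an ER-phagy receptor, rose in shIMPA1 by 0.91 and ATL3 by 0.39. The ATL3 call was lost in all fits that left out 1 library except that without shIMPA1 replicate 1 (limma adjusted p up to 0.133). REEP5, which curves ER membranes, rose in shIMPDH2 by 0.73 and was higher there than in shIMPA1 by 0.68. RETREG3 differed by -0.55 and CKAP4 by 0.50 between the knockdowns, both lost without shIMPDH2 replicate 2, CKAP4 also without replicate 1 (limma adjusted p up to 0.214 and 0.157). The CKAP4 value was 0.31 without shIMPA1 replicate 1.

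Of 11 genes for ER calcium, on which CALR and HSP90B1 depend, 2 rose and 4 fell in shIMPA1, 1 rose and 1 fell in shIMPDH2, and 4 were higher and 1 lower in shIMPDH2 than in shIMPA1. The share called was 54.5% in shIMPA1 and 18.2% in shIMPDH2, against 30.2% and 17.0% of all genes. Between the knockdowns 45.5% were called against 26.1%. ITPR1, a receptor for inositol trisphosphate that releases calcium from the ER, read 30.6 and 31.5 with shLuc, 99.6 and 133 with shIMPA1, and 12.7 and 16.9 with shIMPDH2. It rose in shIMPA1 by 1.86 (limma adjusted p = 0.000816), fell in shIMPDH2 by 1.03 (limma adjusted p = 0.0284) and was lower in shIMPDH2 than in shIMPA1 by a log2 value of -2.89. The related receptor ITPR3 fell in shIMPA1 by 0.60, and leaving out shLuc replicate 2 ended the call (limma adjusted p = 0.0781). It was higher in shIMPDH2 than in shIMPA1 by 0.78. ATP2A3, a calcium pump, fell in shIMPA1 by 1.28, a call that ended without either shLuc library or shIMPA1 replicate 2 (limma adjusted p up to 0.130). TMCO1 rose in shIMPDH2 by 0.46, and ORAI1 was higher in shIMPDH2 than in shIMPA1 by 0.63, the latter lost without either shIMPDH2 library (limma adjusted p up to 0.0707).

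IRE1 also cleaves some mRNAs at the ER, and of 6 such substrates on the list 4 were listed in the data. The levels of these mRNAs went both ways in shIMPA1, and whether IRE1 cleaved them was not tested. COL6A1 rose there by 1.22 (limma adjusted p = 4.92e-05), SCARA3 fell by 1.10 and BLOC1S1 fell by 0.68, and PMP22 had a log2 difference of -0.27 (limma adjusted p = 0.583). Leaving out either shLuc library ended the SCARA3 call and leaving out shLuc replicate 1 that of BLOC1S1 (limma adjusted p up to 0.101 and 0.136). Without shIMPA1 replicate 2 the SCARA3 value was -0.57. In shIMPDH2 COL6A1 rose by 0.57, and SCARA3, BLOC1S1 and PMP22 differed from shLuc by 0.17, -0.30 and -1.04 (limma adjusted p = 0.692, 0.257 and 0.0606). COL6A1 was lower in shIMPDH2 than in shIMPA1 by a log2 value of -0.65 and SCARA3 higher by 1.27, the SCARA3 call being lost without either shIMPDH2 library (limma adjusted p up to 0.0652). That SCARA3 value was 0.75 without shIMPA1 replicate 2. BLOC1S1 and PMP22 differed between the knockdowns by 0.38 and -0.77 (limma adjusted p = 0.128 and 0.125). PDGFRB and SPARC were not among the listed genes.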

How the data were processed

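Poly(A) RNA-seq of 22RV1 cells gave 1 deposited table over 6 libraries. Per the submitters' processing notes, the tools were Trimmomatic 0.36, STAR 2.5.2b, featureCounts of Subread 1.5.2 and DESeq2, with GRCh38. Per the labels' protocols, uniquely placed reads within exons were counted by gene. Not given in the sources used here: the annotation release and the use of strand. Each deposited signal value is a read count scaled by the authors with the size factor of its library, as the values show. The log2 fold change, p-value and adjusted p-value columns of the authors belong to a comparison that the header does not name, and they entered no test.

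Whole reads were recovered for 99.98% to 100% of genes within a tolerance of 0.05 reads, giving 20828900 to 27773294 reads per library. Symbols were given to 16381 of 17811 genes, 16275 of them from a table of gene names, and 17750 identifiers were in GENCODE 29, which gave coordinates. The 17742 genes that reached a value of 10 in 2 or more libraries were tested with limma 3.58.1 (R 4.3.3) on log2(value + 1), with a mean-variance trend, 1 coefficient per group over all 6 libraries, no replicate term and 3 residual degrees of freedom. Adjusted p-values (Benjamini-Hochberg over all genes) under 0.05 were called, and intervals are 95%. Fold changes on this scale understate those of low genes. On the recovered reads, edgeR 4.0.16 (quasi-likelihood) called 5480, 3010 and 4551 genes in the 3 comparisons, against 5361, 3018 and 4627 by limma. DESeq2 1.42.0, TMM scaling, other pseudocounts (0.5, 10), other filters, only the groups compared, no trend, a replicate block and each library left out were alternatives.

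The members and lists were chosen with earlier results of these data known. Named are all 10 members, IMPA1 and IMPDH2. From each list, the 3 called genes with the smallest adjusted p in each comparison are named, and every gene of a list of at most 6. For HSPA5, MANF and ERN1, the 3 other genes with the most similar levels are named. Promoter windows came from RefSeq (GRCh38.p14).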

Additional observations from a re-analysis of the deposited data

How the results depend on the processing

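Over 16 alternative analyses, no log2 change of a called member reversed. The numbers of members called were 10, 4 and 6 (shIMPA1 against shLuc, shIMPDH2 against shLuc, and between the knockdowns), and edgeR and DESeq2 gave the same numbers. In shIMPA1, 7 of 10 calls were kept in every alternative, in shIMPDH2 1 of 4, and between the knockdowns 5 of 6. With 1 library left out, the numbers of members called ranged from 7 to 9, from 1 to 4 and from 5 to 8. Without the trend, 2 members were called in shIMPDH2. The other ER genes called, 70, 53 and 67 of 189, became 39, 10 and 41 without the trend and ranged from 33 to 105, from 5 to 100 and from 23 to 89 with 1 library left out. With only shIMPDH2 and shLuc in the fit, 100 were called. Over all genes, calls were 3508, 1727 and 2909 without the trend, 6382 for shIMPDH2 with only those 2 groups, and from 2147 to 7940, 773 to 6386 and 1430 to 7052 with 1 library left out. The cause of these shifts was not tested. Libraries of different groups with the same number did not deviate together (correlations across genes 0.04, -0.05 and 0.00027). These values cannot tell whether libraries with the same number were grown or prepared together. With the replicate block, 10, 4 and 6 members, 67, 44 and 65 other ER genes and 5298, 2939 and 4537 genes in all were called. What the depth limits was not tested.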
